A study of Rattus norvegicus with 6 samples.

Results

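The proteasome genes of rat liver were followed over 6 diets. They were taken as every gene whose symbol follows the proteasome naming pattern (Psma, Psmb, Psmc, Psmd, Psme, Psmf or Psmg and a number), read from probe sets annotated with exactly 1 symbol, without the immunoproteasome subunits Psmb8 and Psmb9. This gave 45 of the 14506 genes named on the array, read by 52 probe sets, and where a gene had several the one with the highest mean over the 6 arrays was used. The 45 are 7 genes of the alpha ring, 9 of the beta ring, 6 ATPases and 11 non-ATPase subunits of the regulatory particle, 4 activators, 6 assembly chaperones, and 2 genes, Psmc3ip and Psme3ip1, whose symbols follow the pattern although they code for partner proteins and not for subunits. Psma3l is a gene named for its likeness to Psma3. Psma3 itself shares its probe set with Psma3l and was not used, and Psma8, Psmf1 and Psmg3 were not analysed here.

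The diets were HP-HS-HF (high protein, high sucrose, high fat), NP-HS-HF (normal protein, high sucrose, high fat), HP-HS (high protein, high sucrose, low fat), NP-HS (normal protein, high sucrose, low fat), HP (high protein, low fat) and NP (normal protein, low fat). All 30 animals were adult male Wistar rats, which ate the NP diet during 10 days of adaptation, then the assigned diet over 5 weeks (at least 33 and at most 37 days), and were killed 2 h after a calibrated morning meal of 87.6 kJ. For each diet, RNA from 5 livers was combined into 1 pool and put on 1 array, so each diet has 1 value per gene and the spread between rats was not measured. Source labels speak of mice, whereas the organism and housing protocol give rats. The design has 2 protein levels on 3 backgrounds, called here basal (HP and NP), HS and HS-HF. Levels are log2 RMA expression values, in which a difference of 1 is a doubling of signal, and levels of different genes are not compared because probe sets differ in response.

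The proteasome is the main protease of the cytosol and nucleus. A barrel-shaped core particle of stacked alpha and beta rings holds the catalytic sites inside, and a regulatory particle at its end recognises ubiquitin chains, removes them, unfolds the substrate with a ring of ATPases and feeds it into the core. Dedicated chaperones build the rings, and alternative activators can replace the regulatory particle. In many cell types the subunit genes are transcribed together under Nfe2l1, a factor that binds antioxidant response elements, while interferon raises the immune subunits and the Psme1 and Psme2 activator. In liver the proteasome works beside lysosomal autophagy in breaking down cell protein, which varies with feeding and amino acid supply.

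The promoters bear on this shared control, so windows of 5 genes are shown where motifs of these factors lie before the start site: Psmb5 and Psmb6, which code for catalytic subunits, Psmd9, the gene with the highest protein difference, and Psmb10 and Psme2, the interferon-inducible subunit and activator. Promoters of 39 of the 45 genes were matched in RefSeq (build GRCr8), each from 250 bases before to 50 bases after the start, and motifs were searched on both strands. Capitals mark the motif, with up to 20 bases on each side, clipped at the start site, and every sequence reads along the gene's strand. The first 4 windows hold the antioxidant response element core TGACNNNGC.
Psmb5, chr15:32047411-32047459, minus strand: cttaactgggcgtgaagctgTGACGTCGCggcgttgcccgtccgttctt
Psmb6, chr10:55737844-55737887, plus strand: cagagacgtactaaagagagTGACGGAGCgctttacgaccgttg
Psmd9, chr12:39018360-39018408, minus strand, motif on the opposite strand: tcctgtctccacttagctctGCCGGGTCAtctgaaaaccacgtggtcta
Psmd9, chr12:39018313-39018361, minus strand: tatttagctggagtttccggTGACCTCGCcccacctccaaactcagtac
The next 3 windows hold the interferon-stimulated response element core, which is GAAA, any 2 bases and GAAA again.
Psmb10, chr19:50743336-50743385, minus strand: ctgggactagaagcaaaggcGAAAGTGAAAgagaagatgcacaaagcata
Psmb10, chr19:50743293-50743329, minus strand: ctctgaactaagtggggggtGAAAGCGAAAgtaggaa
Psme2, chr15:33052775-33052824, minus strand: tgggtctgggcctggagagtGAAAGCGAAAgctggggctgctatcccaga
The motif begins 60 bases before the start in Psmb5, 24 in Psmb6, 124 and 77 in Psmd9, 73 and 17 in Psmb10, and 53 in Psme2.

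TGACNNNGC was in 7 of the 39 promoters (17.9%), against 12.2% of all 27457 RefSeq promoters of the same length. The 7 are those of Psmb2, Psmb5, Psmb6, Psmd1, Psmd3, Psmd9 and Psme4. The interferon-stimulated response element core was in 6 (15.4%, against 3.79%), namely Psma4, Psmb3, Psmb10, Psmd7, Psme2 and Psmg4. The NF-Y box CCAAT was in 18 (46.2%, against 37.7%), and in Psmb2 it overlaps the TGACNNNGC match. The nuclear respiratory factor core, GCGC followed by any base and TGCGC, was in 5 (12.8%, against 4.67%), in Psma2, Psma4, Psma5, Psmc5 and Psmg1, and its match in Psma2 reads on both strands. A match is a stretch of letters and was not tested for binding. The median HP minus NP difference, described next, was log2 -0.02 over the 7 genes with TGACNNNGC, with a range from -0.08 to 0.22, and log2 0.00288 over the genes without it.

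The proteasome genes stayed close to their own mean on every diet. The gap between the highest and the lowest of the 6 arrays had a median of log2 0.18 over the 45 genes (1.13-fold), against log2 0.25 over all 20450 probe sets that passed the filter on low signal (1.19-fold). All 45 genes passed that filter, a mean above log2 5.14. The gap was under 1.2-fold for 36 of the 45 (80%), against 52.8% of all probe sets tested. Among probe sets with a mean of log2 9 or more, where noise is usually lower, the median gap was log2 0.15 for 28 proteasome genes and log2 0.21 for 3773 probe sets. Below that level it was log2 0.24 for 17 proteasome genes and log2 0.26 for all 16677 probe sets tested there. These medians are descriptions, without a test.

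**Figure D1:**
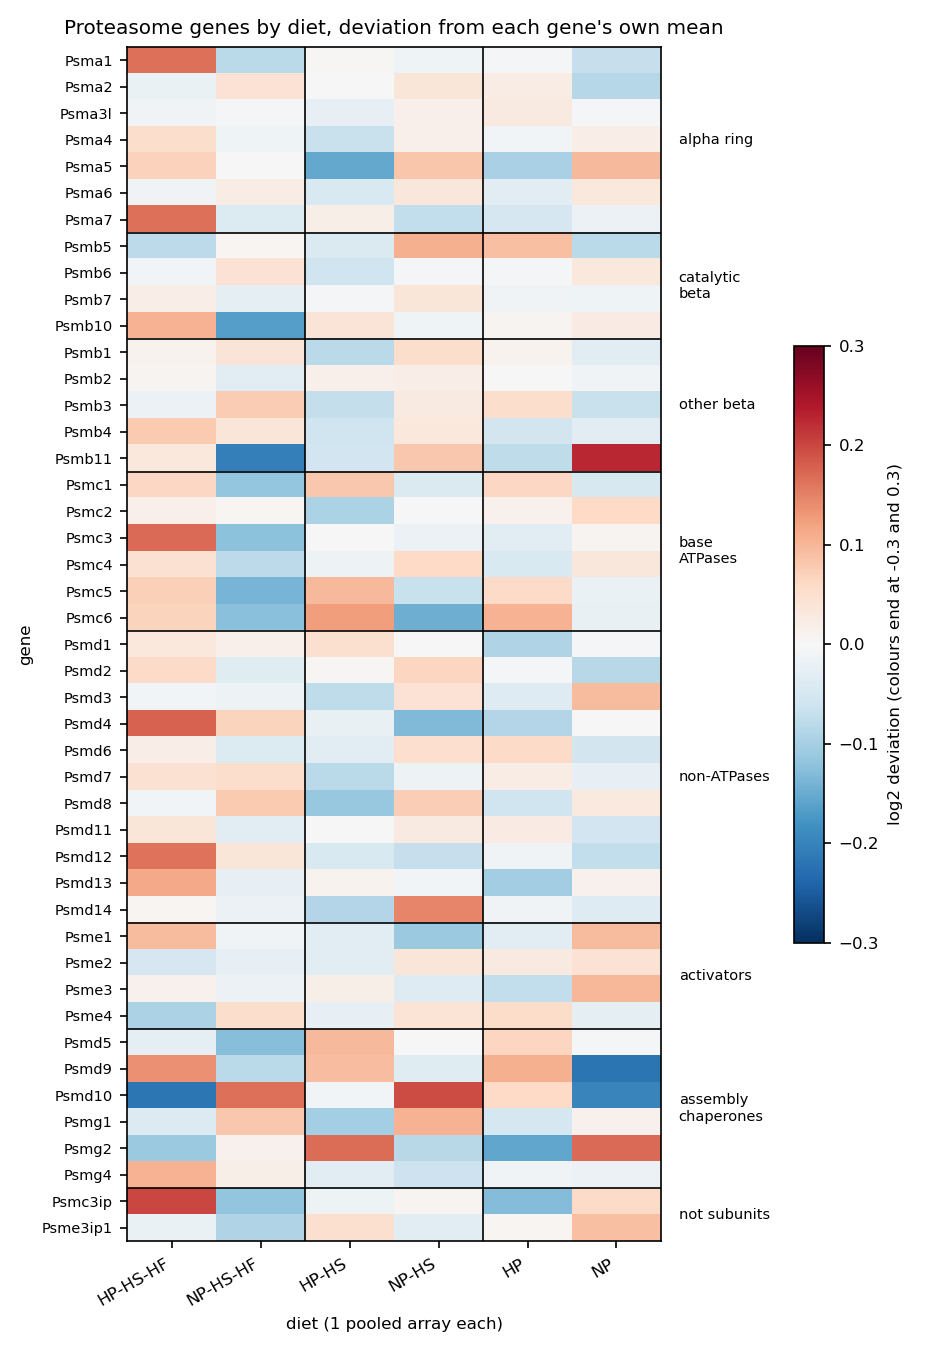
Deviation of each of the 45 proteasome genes from its own mean, in log2 units, on the 6 diets (1 pooled array each), with genes grouped by role; red is above the mean and blue below it. Most cells are pale, the HP-HS-HF column is red for 30 genes, and Psmb11, Psmd9, Psmd10 and Psmg2 are among the rows with the strongest colours.

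The question the protein comparison asks is whether a high-protein diet shifts proteasome transcripts in liver, in a study that tested high protein against fat deposition on sucrose and fat. No proteasome gene passed the test for protein level. In the limma fit with terms for protein and background, 0 of the 45 had a Benjamini-Hochberg adjusted p under 0.05, where 9 of 20450 probe sets did (0.044%). At an unadjusted p under 0.05 there were 2 (Psmd9 and Psmc6, both higher on high protein), against 8.71% of all probe sets. The fitted HP minus NP difference was above 0 for 22 genes and below 0 for 23, with a median of log2 -0.005, against -0.001 over all probe sets. It ran from -0.13 (Psmg1) to 0.22 (Psmd9). The 95% interval lay wholly within 1.2-fold either way (log2 0.263) for 30 genes (66.7%), against 54.3% of all probe sets, and its median half-width was log2 0.17 (1.12-fold). Here and in the other comparisons the interval shares were not matched for signal level. A mean of log2 9 or more was found for 28 of the 45 genes, against 3773 of 20450 probe sets. Over all 45 genes the interval bounds reached no lower than -0.41 and no higher than 0.40. In whole-liver RNA a smaller share of a cell type and less RNA per cell cannot be told apart.

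**Figure D2:**
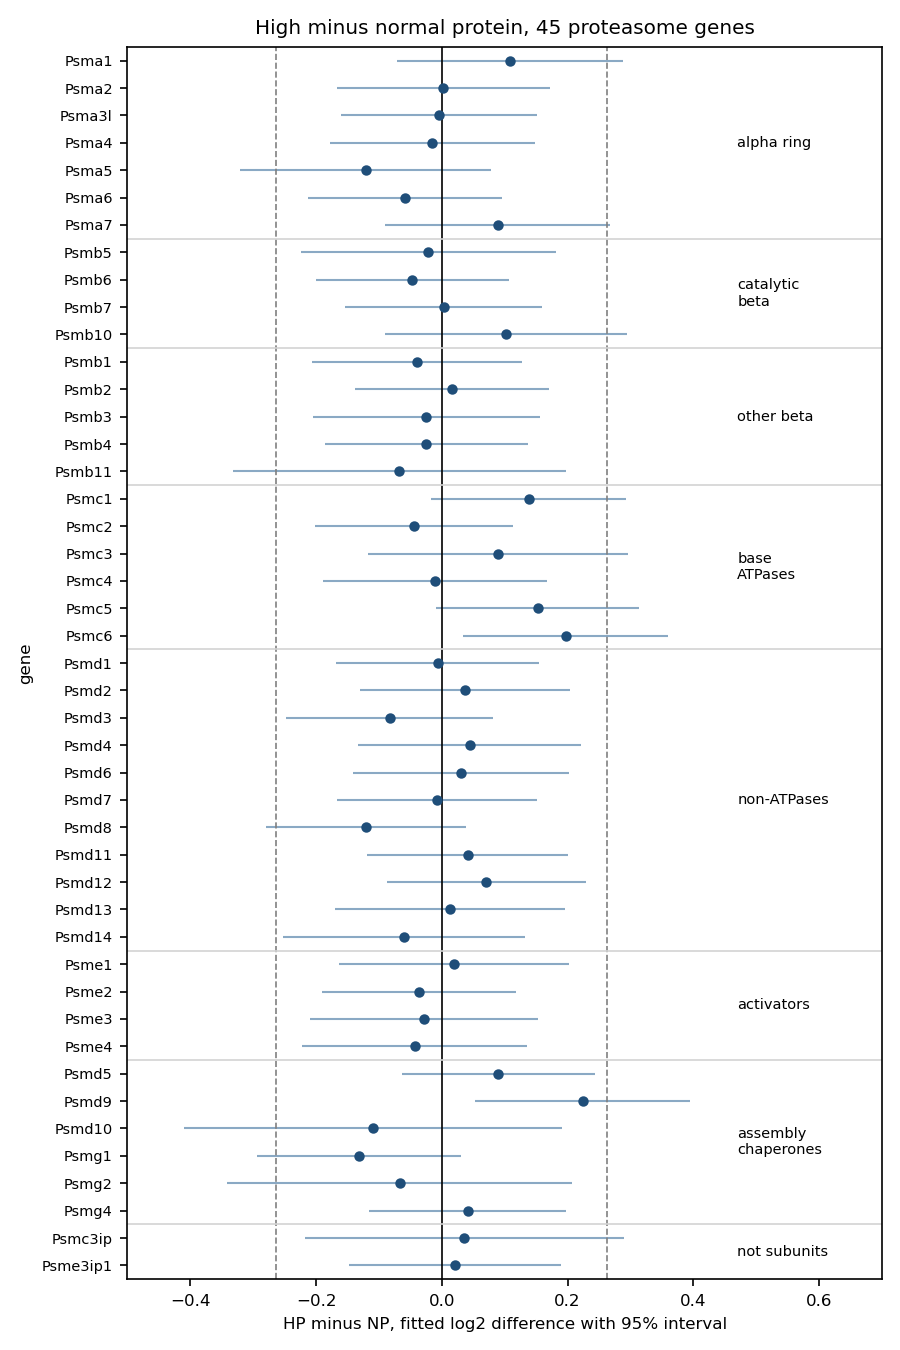
Fitted HP minus NP difference (log2) of each proteasome gene with its 95% interval from limma, by role; the dashed lines mark 1.2-fold either way. Points lie on both sides of 0, 4 of the 6 ATPases lie above it, and Psmd9 and Psmc6 are the genes whose interval leaves out 0.

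The arrays of 1 protein level did not overlap with those of the other for 8 genes. All 3 high-protein arrays lay above all 3 normal-protein arrays for 5 genes (11.1%, against 7.35% of all probe sets), namely Psma1, Psmc1, Psmc5, Psmc6 and Psmd9. They lay below for 3 genes (6.67%, against 7.58%), namely Psma6, Psmd8 and Psmg1. Pairing by background instead, 8 genes were higher on high protein in all 3 backgrounds (17.8%, against 14.6%) and 5 were lower in all 3 (11.1%, against 15%). These shares are near the background.

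The alpha ring forms the gate of the core particle. Its 7 genes had a median HP minus NP difference of log2 -0.005, with 3 above 0, and none passed the test. Psma5 (probe set 10818317) had the widest gap between arrays in the ring. Its level was log2 8.51 on HP-HS-HF, 8.28 on HP-HS and 8.34 on HP, against 8.44 on NP-HS-HF, 8.52 on NP-HS and 8.53 on NP. The HP-HS-HF array overlapped the normal-protein arrays, while HP-HS and HP lay below all of them. The fitted difference was -0.12 ± 0.083 (SE, adjusted p = 0.766), and it was -0.216 without either HS-HF array and -0.0628 without either HS array. Psma1 (10725027) had 10.29, 10.13 and 10.12 on HP-HS-HF, HP-HS and HP, against 10.05, 10.11 and 10.06 on NP-HS-HF, NP-HS and NP, and its difference was 0.11 ± 0.074 (adjusted p = 0.766). Psma6 lay lower on all 3 high-protein arrays, by -0.03 to -0.08 within a background. Psma3l spanned log2 0.05 over the 6 diets, the narrowest gap of the 45 genes. Psma2, Psma4 and Psma7 had fitted differences of 0.003, -0.01 and 0.09.

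The beta ring carries the catalytic sites. Psmb5, Psmb6 and Psmb7 code for the constitutive chymotrypsin-like, caspase-like and trypsin-like subunits, and Psmb10 for the interferon-inducible counterpart of Psmb7. None of the 4 passed the test, their fitted differences lay between -0.05 and 0.10, and 3 of the 4 intervals lay within 1.2-fold. Psmb7 (10844849) had log2 10.55 on HP-HS-HF, 10.53 on HP-HS and 10.52 on HP, against 10.51 on NP-HS-HF, 10.57 on NP-HS and 10.52 on NP, a gap of 0.06 over all diets. Psmb6 (10735244) had 9.48, 9.43 and 9.49 on HP-HS-HF, HP-HS and HP, against 9.53, 9.48 and 9.52 on NP-HS-HF, NP-HS and NP. It was lower on high protein in every background, by at most 0.06, with a fitted difference of -0.05 ± 0.063 (SE, adjusted p = 0.906).

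Psmb5 (10783599) crossed over between backgrounds. It had log2 10.47 on HP-HS-HF, 10.50 on HP-HS and 10.64 on HP, against 10.55 on NP-HS-HF, 10.65 on NP-HS and 10.47 on NP. The HP minus NP difference was 0.17 on the basal diets, -0.15 on HS and -0.08 on HS-HF, and the fitted value was -0.02 with a 95% interval from -0.22 to 0.18. Psmb10 (10810727) had 7.55, 7.48 and 7.45 on HP-HS-HF, HP-HS and HP, against 7.28, 7.43 and 7.47 on NP-HS-HF, NP-HS and NP. Its NP-HS-HF array was the low one: the difference was 0.27 on HS-HF, 0.05 on HS and -0.02 on the basal diets, and the fitted 0.10 ± 0.080 (adjusted p = 0.797) became 0.0178 without either HS-HF array.

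Psmb8 and Psmb9, the other interferon-inducible catalytic subunits, follow the naming pattern but were left out of the genes followed here. Their fitted HP minus NP differences were 0.08 ± 0.085 and 0.09 ± 0.066 (SE, adjusted p = 0.869 and 0.784). For Psmb8 the HS-HF minus basal difference was -0.28 ± 0.104 (adjusted p = 0.921), and for Psmb10 it was -0.05 ± 0.097.

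The other 5 beta genes had a median of log2 -0.02, with 1 above 0. Psmb1, Psmb2, Psmb3 and Psmb4 are structural members of the ring, and their fitted differences lay between -0.04 and 0.02. Psmb4 (10824884) had 9.75, 9.61 and 9.61 on HP-HS-HF, HP-HS and HP, against 9.71, 9.70 and 9.64 on NP-HS-HF, NP-HS and NP. Psmb11 codes for a catalytic subunit known from cortical thymus, and its probe set (10780233) had a mean of log2 5.55, close to the filter level. It had the widest gap of the 45 genes, log2 0.43. Psmb11 read 5.59 on HP-HS-HF, 5.49 on HP-HS and 5.48 on HP, against 5.35 on NP-HS-HF, 5.63 on NP-HS and 5.78 on NP. Its HP minus NP difference was thus 0.24 on HS-HF and -0.30 on the basal diets.

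The ATPases form the ring that unfolds substrates. As a group they had the highest median of the subunit groups, log2 0.11 over 6 genes, with 4 above 0, and none passed the test. Psmc6 (10779607) had log2 9.90 on HP-HS-HF, 9.96 on HP-HS and 9.94 on HP, against 9.71 on NP-HS-HF, 9.69 on NP-HS and 9.81 on NP. The 2 sets of arrays did not overlap, and the fitted difference was 0.20 ± 0.068 (SE, 1.15-fold, unadjusted p = 0.025, adjusted p = 0.483). Psmc5 (10739135) had 7.57, 7.60 and 7.56 on HP-HS-HF, HP-HS and HP, against 7.36, 7.43 and 7.48 on NP-HS-HF, NP-HS and NP. It too did not overlap, with 0.15 ± 0.067 (adjusted p = 0.608). Psmc1 (10886366) had 9.63, 9.65 and 9.63, against 9.45, 9.52 and 9.52 on the same backgrounds, and 0.14 ± 0.064 (adjusted p = 0.635).

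The other 3 ATPase genes did not share that order. Psmc3 (10837778) had log2 9.22 on HP-HS-HF, 9.05 on HP-HS and 9.02 on HP, against 8.93 on NP-HS-HF, 9.04 on NP-HS and 9.06 on NP. Its difference of 0.29 on HS-HF stands beside 0.02 on HS and -0.04 on the basal diets. Psmc2 (10860188) had 10.05, 9.94 and 10.05 on HP-HS-HF, HP-HS and HP, against 10.04, 10.03 and 10.09 on NP-HS-HF, NP-HS and NP, a fitted -0.04. Psmc4 had -0.01, and its second probe set read 0.04. On HS-HF all 6 ATPase genes were higher on high protein, with a median of log2 0.18, against 4 of 6 on HS (0.07) and 3 of 6 on the basal diets (0.02). Over all probe sets tested, HP minus NP was above 0 for 10506 of 20450 on HS-HF, 9928 on HS and 10095 on the basal diets. The NP-HS-HF array was the lowest of the 6 for 4 of the 6 ATPase genes, against 17.7% of all probe sets. Whether the ATPase genes depart from these shares was not tested.

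The non-ATPase subunits of the regulatory particle include its ubiquitin receptors and its deubiquitinase. Their 11 genes had a median of log2 0.01, with 6 above 0, and 10 of the 11 intervals lay within 1.2-fold. Psmd8 (10720430), a lid subunit, had the lowest value of the group. It read 9.93 on HP-HS-HF, 9.83 on HP-HS and 9.88 on HP, against 10.02 on NP-HS-HF, 10.01 on NP-HS and 9.97 on NP. The arrays did not overlap, and the fitted difference was -0.12 ± 0.066 (SE, adjusted p = 0.699). Its second probe set, near the filter level at a mean of log2 5.20, read -0.08. Psmd14, the deubiquitinase of the lid, had -0.06 ± 0.080, and Psmd2, a base subunit that docks ubiquitin shuttle factors, had 0.04 ± 0.069. Psmd2 (10755357) read 10.29, 10.23 and 10.22 on HP-HS-HF, HP-HS and HP, against 10.19, 10.29 and 10.15 on NP-HS-HF, NP-HS and NP. The other 8 genes, Psmd1, Psmd3, Psmd4, Psmd6, Psmd7, Psmd11, Psmd12 and Psmd13, ran from -0.08 (Psmd3) to 0.07 (Psmd12).

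The activators open the core without ubiquitin recognition. Their 4 genes had a median of log2 -0.03, with 1 above 0, and all 4 intervals lay within 1.2-fold. Psme1 (10780396), the alpha subunit of the interferon-inducible activator, had 10.39 on HP-HS-HF, 10.27 on HP-HS and 10.26 on HP, against 10.29 on NP-HS-HF, 10.19 on NP-HS and 10.39 on NP. Its fitted difference was 0.02 ± 0.076 (SE, adjusted p = 0.976), whereas its second probe set read -0.12. Psme2, the beta subunit of the same activator, had -0.04 ± 0.064 and a second probe set at -0.03. Psme3, the nuclear activator, had -0.03, and its second probe set 0.05. Psme4, a large activator of the nucleus, had -0.04. For Psmc4, Psme1 and Psme3 the probe sets of a gene therefore disagreed in sign.

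The assembly chaperones held both ends of the range. Psmd5, Psmd9 and Psmd10 guide assembly of the ATPase ring, and Psmg1, Psmg2 and Psmg4 build the alpha ring. Psmd9 (10758448) had log2 8.02 on HP-HS-HF, 7.98 on HP-HS and 7.99 on HP, against 7.80 on NP-HS-HF, 7.85 on NP-HS and 7.66 on NP. The high-protein arrays lay close together and above every normal-protein array, and the difference was 0.22 on HS-HF, 0.13 on HS and 0.33 on the basal diets. The fitted value was 0.22 ± 0.071 (SE, 1.17-fold, 95% interval 0.05 to 0.40, unadjusted p = 0.0182, adjusted p = 0.452). Psmg1 (10753292) stood at the other end. It had 9.05, 8.99 and 9.04 on HP-HS-HF, HP-HS and HP, against 9.17, 9.20 and 9.10 on NP-HS-HF, NP-HS and NP, and -0.13 ± 0.067 (adjusted p = 0.674). Psmg1 did not overlap between protein levels either. Psmd5 (10844587) had 8.87, 8.99 and 8.96 on HP-HS-HF, HP-HS and HP, against 8.77, 8.89 and 8.89 on NP-HS-HF, NP-HS and NP, and 0.09 ± 0.064 (adjusted p = 0.779).

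Psmd10 (10822092), known as gankyrin and as a factor linked to liver tumours, had protein differences of opposite sign between backgrounds. Its level was log2 6.86 on HP-HS-HF, 7.07 on HP-HS and 7.14 on HP, against 7.25 on NP-HS-HF, 7.28 on NP-HS and 6.88 on NP. HP minus NP was -0.38 on HS-HF, -0.20 on HS and 0.26 on the basal diets. The low arrays are thus HP-HS-HF and NP, and the additive fit, which assumes 1 protein difference for all backgrounds, gave -0.11 ± 0.124 (SE, adjusted p = 0.882) with the widest interval of the 45 genes. Psmg2 (10802434) had 6.62, 6.90 and 6.58 on HP-HS-HF, HP-HS and HP, against 6.75, 6.65 and 6.90 on NP-HS-HF, NP-HS and NP. Its difference was -0.33 on the basal diets and 0.25 on HS. Psmg4 had 0.04.

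**Figure D3:**
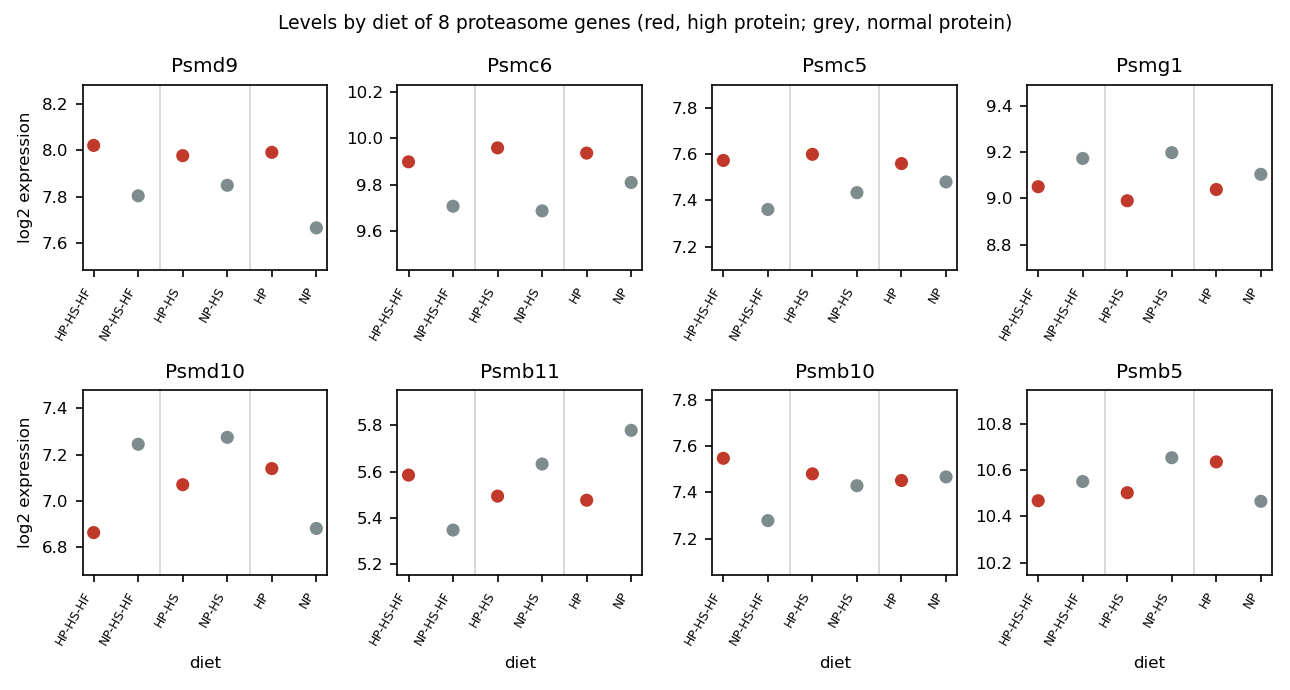
Levels (log2) of 8 proteasome genes on each diet, 1 pooled array per point, high protein in red and normal protein in grey, with the 3 backgrounds separated by lines. The colours separate for Psmd9, Psmc6, Psmc5 and Psmg1, and cross over for Psmd10, Psmb11, Psmb10 and Psmb5.

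Of the 2 genes that are only named like subunits, Psmc3ip, which codes for a protein of meiotic recombination, had a fitted HP minus NP difference of 0.04 ± 0.105, and Psme3ip1, a partner of the nuclear activator, 0.02 ± 0.070 (SE). Psmc3ip (10747554) read 5.84, 5.63 and 5.51 on HP-HS-HF, HP-HS and HP, against 5.52, 5.65 and 5.70 on NP-HS-HF, NP-HS and NP. Psme3ip1 (10806003) read 8.03, 8.09 and 8.05, against 7.96, 8.02 and 8.14 on the same backgrounds.

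The sucrose comparison sets the HS diets against the basal diets over both protein levels. None of the 45 genes had an adjusted p under 0.05 in limma (0% of all probe sets), and none had an unadjusted p under 0.05, against 3.02% of all probe sets. The median difference was log2 -0.003, from -0.10 (Psme1) to 0.16 (Psmd10), and 32 intervals (71.1%) lay within 1.2-fold, against 36.1% of all probe sets. Psmd10, Psmd9 and Psmd2 had the highest fitted values (0.16, 0.08 and 0.08), and Psme1, Psmc2 and Psmb11 the lowest (-0.10, -0.08 and -0.06). For Psmd10 the value came from NP-HS against NP (0.39), while HP-HS against HP gave -0.07. Psme1, Psmb11, Psmd9 and Psmd2 rest on single arrays too. Without the NP array Psme1 was 0.0093, Psmb11 0.1118 and Psmd9 0.0081, and without the NP-HS array Psmd2 was 0.0039. Psmc2 stayed between -0.1214 and -0.0466 over the alternatives. The second probe set of Psme1 read 0.03 for sucrose, and with the probe sets of each gene averaged Psme1 was -0.0363.

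The fat comparison sets HS-HF against HS. None of the 45 had an adjusted p under 0.05 (0% of all probe sets), and none an unadjusted p under 0.05, against 4.95%. The median was log2 -0.001, from -0.13 (Psmd5) to 0.20 (Psmd4), and 24 intervals (53.3%) lay within 1.2-fold, against 32.3%. Psmd4 (10824914), the ubiquitin receptor of the base, read 8.26 on HP-HS-HF and 8.15 on NP-HS-HF, against 8.06 on HP-HS and 7.95 on NP-HS, with 7.995 on HP and 8.08 on NP. Both HS-HF arrays were above the other 4, each 0.20 above HS at its protein level, and the fitted difference was 0.20 ± 0.090 (SE, 1.15-fold, adjusted p = 0.996). Psmd12 (10739225), a scaffold of the lid, read 9.84 on HP-HS-HF and 9.71 on NP-HS-HF, against 9.63 on HP-HS and 9.61 on NP-HS, with 9.66 on HP and 9.60 on NP. It had the same order and a difference of 0.16 ± 0.080. Both genes were named for their high fat difference, and the share of all probe sets with this order was not counted. Psmd5 lay lower on HS-HF at both protein levels, with -0.12 at high and -0.13 at normal protein. Psmd10 and Psmb11 had fitted values of -0.12 and -0.10, but Psmd10 gave -0.21 at high and -0.03 at normal protein, and Psmb11 0.09 at high and -0.29 at normal protein.

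With sucrose and fat together, HS-HF against basal, again no gene had an adjusted p under 0.05 (0% of all probe sets) or an unadjusted p under 0.05, against 5.18%. The median was log2 0.01, with 27 genes above 0 and 18 below, from -0.16 (Psmb11) to 0.17 (Psmd4), and 25 intervals (55.6%) lay within 1.2-fold, against 31.9%. By role, 9 of the 11 non-ATPase genes and 6 of the 7 alpha genes were above 0, with medians of 0.05 and 0.03. Of the 6 ATPases 1 was, with a median of -0.03. Over all probe sets tested, 9978 of 20450 were above 0. Whether a role departs from that share was not tested. Psmd4, Psmd12 and Psmb4 had the highest values (0.17, 0.14 and 0.10), and Psmb11, Psmd5 and Psme3ip1 the lowest (-0.16, -0.11 and -0.10). Without the HP array Psmd4 was 0.0671, and without the NP array it was 0.2663, Psme3ip1 -0.0231 and Psmb11 0.0146. Without the HP-HS-HF array Psmb4 was 0.0511.

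Differences between 2 arrays were small too. HP minus NP passed 1.2-fold in either direction for 4 genes on HS-HF (14.6% of all probe sets did so), which were Psmc3ip (0.32), Psmc3 (0.29), Psmb10 (0.27) and Psmd10 (-0.38). On HS it was 1 gene (11.9%), Psmc6 (0.27). On the basal diets it was 3 genes (12.4%), Psmd9 (0.33), Psmg2 (-0.33) and Psmb11 (-0.30). Each of these counts is a smaller share of the 45 than that of all probe sets, which were not matched for signal level. The order of the counts depends on the scaling. With arrays centred on their medians 2 genes passed on HS-HF, 1 on HS and 4 on the basal diets. HS minus basal passed for 1 gene at high protein (9.03%), which was Psmg2 (0.32), and for 1 at normal protein (9.54%), which was Psmd10 (0.39). HS-HF minus HS passed for 1 gene at high protein (11.3%), Psmg2 again (-0.28), and for 1 at normal protein (9.71%), Psmb11 (-0.29). HS-HF minus basal passed for 3 genes at high protein (11.9%), Psmc3ip (0.33), Psmd4 (0.27) and Psmd10 (-0.28), and for 2 at normal protein (11.7%), Psmd10 (0.36) and Psmb11 (-0.43). None passed 1.5-fold in any of the 9 differences. These differences share arrays and have no replicate check, so no p is given.

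**Figure D4:**
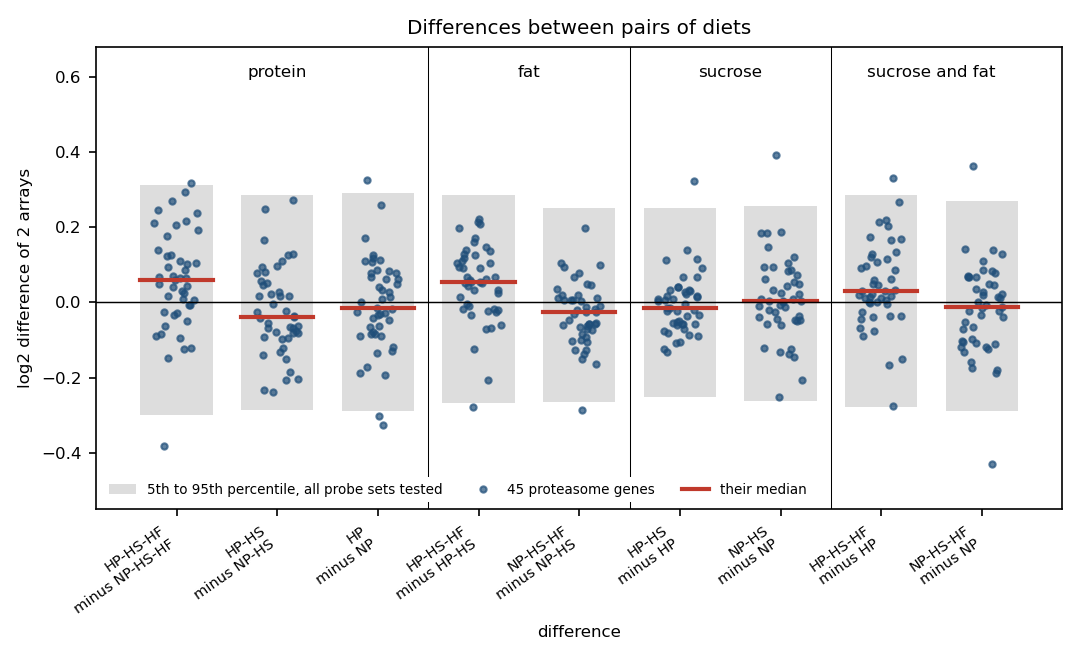
Log2 difference of 2 arrays for each of the 45 proteasome genes in the 9 differences, with their median in red; the grey bars span the 5th to 95th percentile of all 20450 probe sets tested. The medians lie between -0.040 (HP-HS minus NP-HS) and 0.061 (HP-HS-HF minus NP-HS-HF), and nearly all points lie inside the grey bars.

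The HP-HS-HF and HP-HS arrays leaned in opposite directions. HP-HS-HF was the highest of the 6 arrays for 13 of the 45 genes (28.9%, against 19.6% of all probe sets). It was the lowest for 3 (6.67%, against 19.9%), and its median deviation from a gene's own mean was log2 0.03. HP-HS was the lowest array for 14 genes (31.1%, against 15.6%), with a median deviation of -0.02. The normal-protein arrays of these backgrounds leaned the other way. NP-HS-HF was the lowest array for 11 genes (24.4%, against 17.7%), with a median deviation of -0.01. NP-HS was the highest for 10 (22.2%, against 16.8%), with a median deviation of 0.01. Accordingly HP minus NP was above 0 for 31 of the 45 genes on HS-HF (10506 of 20450 probe sets), with a median of log2 0.06. On HS it was above 0 for 18 genes (9928 of 20450), with a median of -0.04. For the basal diets the count was 22 (10095 of 20450), with a median of -0.02. The lean of an array rests on 1 pool, and each HP minus NP difference rests on both arrays of its background. Whether they are larger than the spread between pools of the same diet was not tested.

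Similarity between the genes over the diets was low for most pairs. Over the 990 pairs of proteasome genes, Pearson's r across the 6 shared arrays had a median of 0.09, and 4.24% of pairs had r over 0.8. Over all pairs of the 11421 named genes tested the median was 0.00148 and the share 3.21%. Within roles the median r was 0.22 for the ATPases (15 pairs), 0.11 for the alpha ring (21 pairs), -0.17 for the catalytic beta genes (6 pairs) and -0.24 for the assembly chaperones (15 pairs). The share of pairs with r over 0.8 was 20% for the ATPases and 14.3% for the alpha ring, and 0% for the catalytic beta genes and the assembly chaperones. These values are descriptions over 6 arrays that all genes share.

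Genes that work around the proteasome were read from lists by function, and none of their members passed the test in any of the 4 comparisons. Of 12 listed proteasome factors outside the name rule, 9 were measured, with a median HP minus NP difference of log2 0.04. Zfand2a, a stress-induced proteasome partner, read 8.39 on HP-HS-HF, 7.86 on HP-HS and 7.86 on HP, against 7.60 on NP-HS-HF, 7.83 on NP-HS and 7.65 on NP, and 0.34 ± 0.144 (SE, adjusted p = 0.577). The size came mainly from HP-HS-HF against NP-HS-HF. Uchl5, a deubiquitinase of the regulatory particle, had -0.15 ± 0.073 (adjusted p = 0.661), and Pomp, the maturation factor of the core, 0.14 ± 0.071 (adjusted p = 0.682).

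Among regulators of proteasome genes, 15 of 16 were measured, with a median of log2 0.006. At an unadjusted p under 0.05, 2 were higher (Irf1 and Ngly1) and 2 lower (Foxo3 and Nfe2l2) on high protein, against 8.71% of all probe sets in either direction. Foxo3, a forkhead factor that raises proteasome and autophagy genes in wasting muscle, read 9.02 on HP-HS-HF, 9.44 on HP-HS and 9.50 on HP, against 9.45 on NP-HS-HF, 9.77 on NP-HS and 9.86 on NP. It was lower on high protein in every background, by -0.38 ± 0.066 (SE, adjusted p = 0.163), and lower on HS-HF than on HS by -0.37 ± 0.080 (adjusted p = 0.81). Irf1, an interferon-response factor that drives immunoproteasome genes, read 7.99, 7.56 and 7.66 on HP-HS-HF, HP-HS and HP, against 7.74, 7.42 and 7.36 on NP-HS-HF, NP-HS and NP. Its HP minus NP difference was 0.23 ± 0.069 (adjusted p = 0.425) and its HS-HF minus HS difference 0.38 ± 0.085 (adjusted p = 0.81). Nfe2l2, the antioxidant response factor related to Nfe2l1, had -0.21 ± 0.086 (adjusted p = 0.567). Nfe2l1 itself had -0.17 ± 0.078 (adjusted p = 0.623). Its HP minus NP difference was -0.33 on HS-HF, -0.10 on HS and -0.09 on the basal diets.

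Of 21 genes for ubiquitin and its activation and conjugation, 15 were measured, with a median of log2 -0.04 and 3 above 0. Ube2g2, a conjugating enzyme of protein quality control at the endoplasmic reticulum, had 0.22 ± 0.072 (SE, adjusted p = 0.457), Ube2g1 -0.16 ± 0.090 and the activating enzyme Uba6 -0.15 ± 0.083. Of 17 genes for the p97 segregase and shuttle factors, 15 were measured, with a median of -0.03, from -0.11 (Sel1l) to 0.08 (Ufd1), and Bag6 at -0.10. Of 13 genes for interferon-inducible antigen processing, 11 were measured, Psmb10, Psme1 and Psme2 among them, with a median of 0.02. Besides Irf1 the furthest from 0 were Psmb10 (0.10) and Psmb9 (0.09). All 20 autophagy and lysosome genes were measured, with a median of -0.01. Ulk1, the kinase that starts autophagy, had -0.28 ± 0.076 (adjusted p = 0.377), Map1lc3a, a coat protein of autophagosomes, 0.22 ± 0.111 (adjusted p = 0.679), and Gabarapl1, of the same family, 0.15 ± 0.066 (adjusted p = 0.592).

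The tissue label fitted its markers: all 10 hepatocyte markers were measured, the lowest of their means was log2 11.8, and their median HP minus NP difference was 0.01. Markers of some other cell types had higher values on high protein. All 10 macrophage markers were higher on high protein, with a median of log2 0.21 (0.21 on HS-HF, 0.22 on HS and 0.20 on the basal diets). Of them 8 had an unadjusted p under 0.05, against 8.71% of all probe sets, and the lowest adjusted p was 0.287. Their summed log2 level ranged from 83.7 to 85.7 on high protein, against 81.8 to 83.2 on normal protein, and none was near 0. The same 10 markers had a median of -0.19 for HS-HF minus HS, with 1 above 0. Of them 4 were lower at an unadjusted p under 0.05 in limma, against 4.95% of all probe sets, and the lowest adjusted p was 0.934. For HS minus basal the median was 0.06, with all 10 above 0. For the bile duct list, 5 of 6 were measured, with a median of 0.17 (5 of 5 above 0), and a summed level of 30.6 to 31.3 on high protein, against 29.8 to 30.6 on normal protein. Endothelial markers (4 of 7 measured) had a median of 0.07, stellate markers (7 of 7) 0.01, and the 5 lymphocyte markers tested, of 9 measured, -0.07, with Cd3d, Cd3e, Cd3g and Ms4a1 below the filter. Of those 5, Cd4 (0.27) and Ptprc (0.23) had an unadjusted p under 0.05 and the lowest adjusted p was 0.304. The part of these markers in the proteasome values, such as those of Psmd9 and the ATPases, was not tested.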

How the data were processed

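The authors' deposited values are log2 expression per probe set, summarised by RMA per the submitters' processing notes; no source used here gives its version or settings. The table has 29214 probe sets on 6 arrays, each of RNA pooled from 5 rats. Gene names came from the platform annotation (15310 probe sets with 1 symbol, 323 with several, 13581 not listed and unnamed here), and 44 of the 45 members matched RefSeq by Entrez number. The members and the gene lists were chosen with earlier results of these data known.

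Probe sets with a mean above the 30th percentile (log2 5.14) were tested, 20450 in all. limma 3.58.1 in R 4.3.3 was fitted with terms for protein level and background, with 2 residual degrees of freedom, a prior of 4.37 and a prior SD of 0.094, and Benjamini-Hochberg adjustment over all probe sets for each effect. SE and 95% intervals come from this fit. With 1 pooled array per diet, p-values for protein rest on how far its difference varies between backgrounds. For sucrose, fat, and both together they rest on how far background differences vary between the protein levels. Both are the same residual spread, moderated by the prior, and an interaction could not be fitted. The number of arrays limits the precision. Array medians spanned 0.0325 on the log2 scale. The script was tested on simulated data.

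Named members were the 4 catalytic genes, the 3 highest and 3 lowest of each effect and the widest range of each role, and for each list up to 3 with the largest protein difference. Psma1, Psmc1 and Psmg2 were given in full, and Nfe2l1 was added, after their values were seen. Alternatives were other filters, median centring, leaving out each array, a variance trend, ordinary t, array weights, averaged probe sets and other fold thresholds.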

Additional observations from a re-analysis of the deposited data

Results flagged for a closer look

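Psmd10, the chaperone also called gankyrin, stood out because its HS-HF minus basal difference passed 1.2-fold in opposite directions at the 2 protein levels. It was log2 -0.28 at high protein (HP-HS-HF minus HP) and 0.36 at normal protein (NP-HS-HF minus NP), a gap of 0.64. Each value is a difference of 2 pooled arrays, and the gap itself was not tested. Of the 20450 probe sets tested, 272 (1.33%) met the same criterion, and Psmd10 was the 1 proteasome gene among them.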

How the results depend on the processing

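The count of proteasome genes with an adjusted p under 0.05 was 0 in all 12 settings for protein and all 13 for each of the other 3 effects, ordinary t and a variance trend included. The lowest adjusted p was 0.348 for protein (filter at the 50th percentile), 0.913 for sucrose (without the HP array), 0.812 for fat (array weights) and 0.711 for sucrose and fat (without the HP-HS-HF array). The median difference over the 45 genes lay between log2 -0.0087 and 0.018 for protein, -0.022 and 0.0333 for sucrose, -0.0225 and 0.0407 for fat, and -0.0166 and 0.0445 for sucrose and fat, and the leave-one-out fits set both ends of each range. At 1.1-fold the counts of genes past the threshold were 8 (HP minus NP), 10 (HP-HS minus NP-HS), 13 (HP-HS-HF minus NP-HS-HF), 9 (NP-HS minus NP), 2 (HP-HS minus HP), 4 (NP-HS-HF minus NP-HS), 11 (HP-HS-HF minus HP-HS), 8 (NP-HS-HF minus NP) and 11 (HP-HS-HF minus HP), and at 1.5-fold 0 in each. With arrays centred on their medians, 2 genes instead of 4 passed 1.2-fold in HP-HS-HF minus NP-HS-HF, and 4 instead of 3 in HP minus NP. Of 361 alternative values for the 28 named gene and effect pairs, 339 moved by less than 1 SE, and 14 turned sign without either value passing the test. Many of the 339 could not move, so their number does not measure robustness. Other filters, a variance trend and ordinary t leave a fitted difference unchanged. For sucrose, fat, and both together, so do array weights and leaving out an array outside the comparison. The protein difference of Psmd9 lay between 0.173 and 0.272 over the alternatives. For sucrose, Psmd10 lay between -0.114 (without the NP array) and 0.438 (without the HP array). For sucrose and fat, Psmb11 lay between -0.39 (without the HP-HS-HF array) and 0.0678 (without the NP-HS-HF array). Why these arrays differ was not tested. No paired analysis was possible because each diet has 1 array and no replicate number links arrays; the background term of the fit already sets HP against NP within each background. Pooling leaves the spread between rats unknown, and signal near the filter level limits Psmb11 and Psmc3ip.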
